A study of Homo sapiens with 4 samples.

Results

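Human blastoids, blastocyst-like aggregates grown from embryonic stem cells, held a population of dividing mesenchyme-like cells that carried transcripts of the homeobox gene PITX1, and 435 of these cells are described here. They were chosen by measured values. A member was a blastoid cell with at least 500 detected genes, at least 1 unique molecular identifier (UMI, a tag that lets copies of 1 RNA molecule be counted once) of PITX1, and at least 4 of 8 cycle genes detected (MKI67, TOP2A, CENPF, UBE2C, TPX2, CDK1, BIRC5 and NUSAP1). Cells with at least 2 of TECRL, RGS5, RGS4 and PRPH, with at least 3 of the 6 matrix genes POSTN, DCN, MGP, CXCL14, EGFL6 and MFAP4, or with at least 2 of the 5 amnion genes TFAP2A, TFAP2B, GABRP, VTCN1 and KRT7 were left out, and these 3 conditions are called the TECRL gate, the matrix gate and the amnion gate. The members numbered 276 of 2289 cells with at least 500 genes in blastoid 3 (12.1%, exact 95% interval 10.8 to 13.5%) and 159 of 1951 in blastoid 4 (8.15%, 6.97 to 9.45%), out of 9680 such cells in the series. The comparison cells, called resting PITX1 cells, met the same rule except that at most 1 of the 8 cycle genes was detected, and they numbered 101 and 55.

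The study measured RNA of single cells in 4 samples, with Chromium 3′ chemistry from 10x Genomics. The stem cell group, hESC 1 and hESC 2, was KhES1, a standard line of human embryonic stem cells, grown undifferentiated in mTeSR-1 medium. The blastoid group, blastoid 3 and blastoid 4, was made from the same line, which was aggregated, embedded in a hydrogel and cultured in iBlastoid medium. All samples come from 1 line, and no label states that samples of a group were separate cultures. The p-values therefore measure at most the spread between these samples, which may be technical. Where cycling and resting cells of the same samples were compared, the p-values rest on a spread shared by all genes, little above counting error.

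PITX1 is a paired-type homeodomain transcription factor known for its part in hindlimb mesenchyme and the pituitary. PRRX1, HAND1 and TBX3 are transcription factors of limb, cardiac and extraembryonic mesenchyme, and WNT5A is a WNT ligand of outgrowing mesenchyme. In a dividing cell, E2F factors switch on the genes of DNA replication before S phase, and the genes of mitosis follow later under B-MYB, FOXM1 and the MuvB complex, which binds a short promoter element, the cell cycle genes homology region (CHR), often beside a CCAAT box bound by NF-Y.

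The members had a median of 7227 UMIs and 2894.5 genes per cell in blastoid 3 and 9257 UMIs and 3297 genes in blastoid 4. The resting PITX1 cells were shallower, at medians of 4595 and 6067 UMIs, and a gate that counts detected genes is passed more easily by a deep cell. PITX1 was carried by a median of 4 UMIs per member in blastoid 3 and 8 in blastoid 4, and 48 and 18 members had a single one. Just inside the cycle gate, 39 and 21 members had 4 of the 8 genes (median 5318 and 7773 UMIs). Just outside it, 41 and 16 cells had 3 (median 5604 and 6150.5 UMIs). Without the PITX1 condition, 141 and 86 further cells met the rule. Scrublet, a doublet caller, marked 0 and 1 of the members, and 11 of 2289 and 35 of 1951 cells in all, so doublets of like cells would not have been removed. Of the 2071 barcodes of blastoid 4, 1035 also occurred in the table of blastoid 3, where none of them reached 500 genes. They include 96 of the 159 members of blastoid 4 (60.4%) and 5 of its 55 resting cells, and no barcode is a member in both samples. The counts of called genes are therefore also given without shared barcodes, an alternative chosen after seeing the data. The shares of cells were not recomputed that way.

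The markers given here went with the label of a cycling mesenchyme. TWIST1, PDGFRA and COL1A1 of the planned mesenchyme markers are not given, and the detection shares have no other class of cells beside them. These values describe the chosen cells, and levels of the genes of the rule are in raw CPM, that is UMIs per 1000000 UMIs of the summed cells. PITX1 stood at 671 and 949.9 in the members of blastoid 3 and 4. PRRX1 was detected in 83.3% and 84.3% of the members, WNT5A in 86.2% and 79.2%, HAND1 in 95.3% and 94.3%, TBX3 in 83.7% and 74.8% and the intermediate filament gene VIM in 90.6% and 93.7%. The fibroblast genes COL3A1 and LUM were detected in fewer members, at 49.3% and 55.3% and at 37.7% and 49.1%. MKI67, which codes for the Ki-67 protein of dividing cells, was detected in 82.6% and 86.8% and TOP2A, the topoisomerase of chromosome separation, in 94.9% and 89.9%, both being genes of the rule. Of amnion gate cells outside the other gates, 4.56% and 9.52% had a PITX1 UMI (median 6695 and 9335 UMIs). PITX1 there was at 10.5 and 18.97 raw CPM. Of blastoid cells with at least 3 of 6 pluripotency genes, 27.3% and 25.2% had a PITX1 UMI, at 173.8 and 118.6 raw CPM. This class includes 22 and 15 of the members. Whether the PITX1 of this class or of the amnion gate cells was free RNA was not tested.

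Markers of other cell types were low but not all absent. No UMI of PECAM1 or CDH5 (endothelium), PTPRC (blood), PAX6 (neural), FOXA1 or TTR (endoderm) or TFAP2B (amnion) was counted in any member, where a gene that a table does not list counts as 0. Other genes of these lists had UMIs in members of blastoid 3 and 4. They were 3 and 3 of 7 endothelium, 2 and 1 of 5 blood, 2 and 2 of 4 neural and 3 and 2 of 6 endoderm markers. The 5 heart muscle markers summed to 82.0 and 103.8 raw CPM in members and 117.2 and 198.2 in resting PITX1 cells. In cycling stem cells they summed to 14.6 and 18.0. All 8 pluripotency markers had UMIs, and their summed level was 634.7 and 574.3 raw CPM in the members against 614.0 and 423.8 in the resting PITX1 cells and 4356 and 4493 in the cycling stem cells. POU5F1, the core pluripotency factor, was detected in 14.5% and 18.2% of members and in 6.93% and 1.82% of resting PITX1 cells. At least 2 of 6 pluripotency genes were detected in 30.4% and 29.6% of members against 15.8% and 12.7% of resting PITX1 cells. The resting cells were shallower, as given above, and a gene is detected more easily in a deep cell. The part of depth in these detection shares was not tested. The 10 amnion and trophectoderm epithelium markers include the 5 genes of the amnion gate, TFAP2B among them. In both states the rule limited each cell to fewer than 2 of these 5, so their low level was partly fixed by it. The 10 markers summed to 582.8 and 762.1 raw CPM in members and 850.5 and 972.7 in resting cells, most of it KRT19 (422 and 620.1 in members). The part of such cells or of their free RNA in the results was not tested, beyond leaving out cells with at least 2 pluripotency genes.

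The members were a minority of the dividing PITX1 cells. PITX1 was detected in 1497 of 2289 cells of blastoid 3 (65.4%) and in 1182 of 1951 of blastoid 4 (60.6%). Of the 1598 PITX1 cells past the cycle gate, 1163 (72.8%) fell into an exclusion gate, 1062 of them into the TECRL gate, 215 into the matrix gate and 43 into the amnion gate, some into more than 1. Inside no exclusion gate, 59.4% of PITX1 cells in blastoid 3 (54.7 to 63.9%) and 62.6% in blastoid 4 (56.3 to 68.6%) passed the cycle gate. In the TECRL gate the shares were 61.6% (58.4 to 64.8%) and 60.6% (57.2 to 63.9%), so the intervals of the 2 classes overlapped in both samples. In the matrix gate they were 54.6% (48.5 to 60.7%) and 51.1% (42.3 to 59.9%). Blastoid cells without PITX1 passed it in 38.8% (35.4 to 42.3%) and 39.3% (35.8 to 42.8%), below the PITX1 cells of no exclusion gate in both samples, and stem cells in 57.8% and 53.6%.

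Depth moved the levels and some of these orders. With each cell thinned to 2000 UMIs and 13 and 12 shallower cells left out, 35.4% (30.99 to 40.0%) and 33.9% (27.9 to 40.2%) of PITX1 cells inside no exclusion gate passed the cycle gate. Thinned cells without PITX1 passed it in 20.1% (17.2 to 23.3%) and 15.5% (13.0 to 18.4%), with 92 and 29 shallower cells left out. The intervals are exact binomial ones and cover counting error only. In both samples PITX1 cells of no gate stayed above cells without PITX1, to which no exclusion gate was applied. Other orders turned. The cells with at least 3 pluripotency genes passed in 31.9% and 28.7% after thinning. These shares lay below the cells of no gate, with overlapping intervals. In blastoid 3 the matrix gate passed in 39.9% after thinning, above the cells of no gate, and in blastoid 4 the TECRL gate passed in 34.9%, also above them, with overlapping intervals in both. The shares are a description with no test, since the cycle gate was part of the rule.

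**Figure D1:**
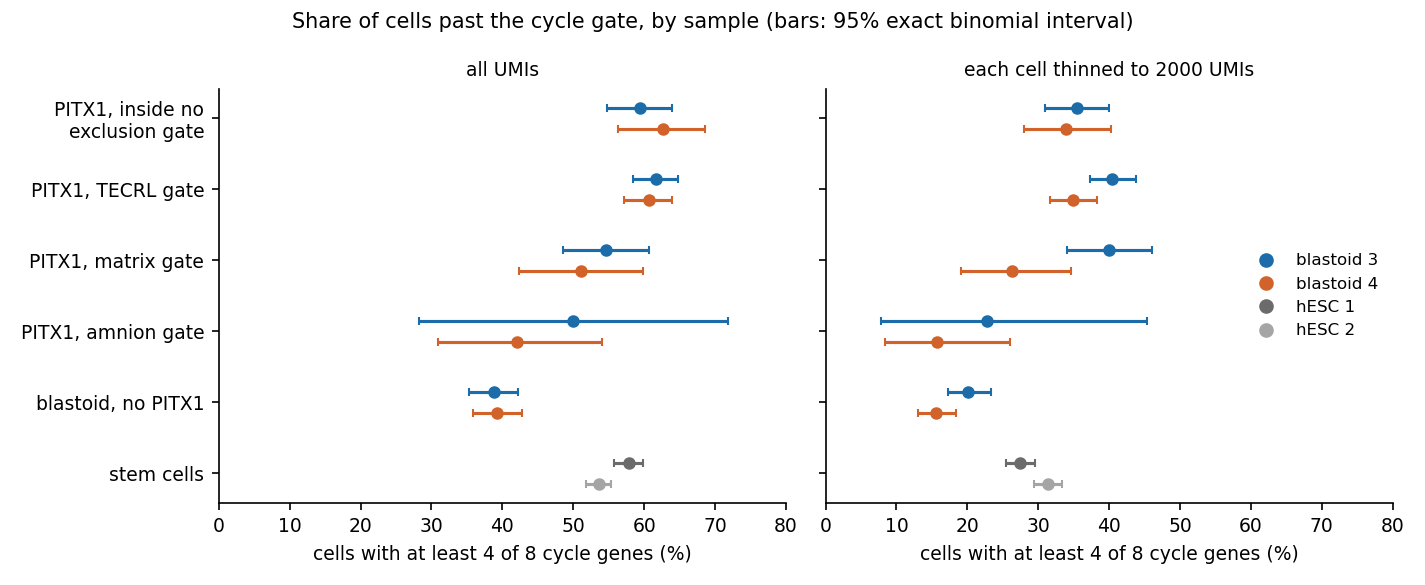
Share of cells with at least 4 of 8 cycle genes detected (x axis, %), by class of cell (y axis) and sample (colour), as counted (left) and with each cell thinned to 2000 UMIs (right); bars are exact 95% binomial intervals. In both panels and both blastoid samples the PITX1 cells inside no exclusion gate lie above the cells without PITX1 (59.4% and 62.6% against 38.8% and 39.3% as counted). The cells without PITX1 include those of the amnion gate.

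The first comparison asks what else differed between cycling and resting PITX1 cells of the same blastoid sample. UMIs were summed per sample and state, giving 2060766 and 1464362 UMIs for the cycling and 460905 and 327960 for the resting cells, and tested with edgeR's quasi-likelihood test with the sample as a block. Levels in this comparison are CPM on library sizes scaled by TMM, a normalization to the bulk of genes, and fold changes are cycling minus resting on the log2 scale. Of 9299 genes tested, 879 were called at an adjusted p under 0.05 (9.45%), 510 of them higher (5.48%) and 369 lower (3.97%) in the cycling cells, with a median log2 fold change of -0.01 over all of them. The 24 genes of the rule were left out of the tests. With 1 residual degree of freedom among samples the test leaned on a spread shared by all genes, little above counting error, and DESeq2 called 145 genes and edgeR without the block 303. Without shared barcodes 598 genes were called, 547 of them among the 879, of which 146 were not tested there.

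The split was made from 8 cycle genes, so other cycle genes are not independent of it, and their values describe how complete the split was. Of the 25 kinetochore and spindle checkpoint genes, which hold chromosomes to the spindle, all 25 tested were called higher, at a median log2 fold change of 3.24. All 30 spindle, motor and cytokinesis genes were called higher (median 3.83, or 3.53 with genes at 0 in the resting cells set at their bound), and 14 of 17 genes of mitotic entry (median 2.54). All 22 genes of chromosome structure and the nuclear envelope were higher too (median 1.49), among them SMC4, a condensin subunit, at 417 and 368 CPM in cycling against 104 and 44.2 CPM in resting cells. The cycling cells lay above the resting cells of both samples for each of these genes that is named below.

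Several mitotic genes were close to absent from the resting cells. NUF2, a kinetochore component, had 148 and 121 UMIs in the cycling cells and 0 in the resting cells, which makes it at least 19.7-fold higher against a floor of 3 counts over the group. PLK1, the kinase that drives entry into mitosis, had 135 and 118 UMIs against 0 and was at least 18.6-fold higher. The same bound was 15.8-fold for HJURP, which loads the centromeric histone, 13.0-fold for CDCA5, which protects sister chromatid cohesion, 10.7-fold for CIT, the citron kinase of cytokinesis, 10.6-fold for RTKN2 and 9.91-fold for CDCA3, all with 0 UMIs in resting cells. With a single resting UMI, HIST1H1B, a linker histone gene, had a log2 ratio of 7.04 (exact 95% counting interval 4.55 to 12.3), GTSE1, a G2 phase protein, of 6.34 (3.86 to 11.7) and KIF4A, a chromosome-bound motor, of 5.91 (3.42 to 11.2). AURKB, the kinase that corrects chromosome attachment, stood at 91.4 and 84.2 CPM against 4.26 and 6.31, CCNB1, the cyclin of mitosis, at 226 and 180.2 against 29.8 and 34.7, and DLGAP5, a spindle protein, at 211 and 129 against 6.39 and 3.16.

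Lists of S phase genes had lower medians than the kinetochore and spindle lists, with the histone genes the closest to them. Of 32 replication licensing and fork genes 22 were called higher and none lower (median log2 fold change 1.33). GINS1, a helicase subunit, stood at 64.7 and 57.8 CPM in cycling against 2.13 and 9.47 CPM in resting cells, and the flap nuclease FEN1 at 92.8 and 92.6 against 25.6 and 12.6. Of 9 nucleotide synthesis genes 7 were higher, with RRM2, the regulated subunit of ribonucleotide reductase, at 156 and 137 against 8.52 and 22.1 CPM. Histone genes, transcribed with DNA replication, were higher for 8 of 8 (median 3.11), and HIST1H4C, the most abundant, rose from 377 and 347 to 3035 and 3527 CPM. DNA repair and replication stress genes were higher for 11 of 13, such as FANCD2 at 64.7 and 64.0 against 12.8 and 9.47 CPM.

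The control layer above replication was less uniform. Of 14 genes of the cyclins, G1 kinases and E2F factors, 4 were called higher, the repressors E2F7 and E2F8, the pocket protein gene RBL1 and the phosphatase gene CDC25A, and 1 was called lower. The higher calls were few under other settings, with 1 of 14 without blastoid 3, 0 of 15 without blastoid 4, 1 of 14 without the block and 0 of 14 by DESeq2. E2F7 stood at 29.1 and 30.6 CPM against 8.52 and 6.31 (log2 fold change 1.95, SE 0.53, adjusted p = 0.0047), and was not called in 6 of 16 alternatives, among them those without blastoid 3 and without blastoid 4. CCND2, a D-type cyclin that carries growth signals to the cycle, was the lower one, at 150.4 and 102 CPM in the cycling cells and 292 and 186 in the resting cells (log2 fold change -0.93, SE 0.15, adjusted p = 5.6e-08). Both resting values exceeded both cycling values. The other D-type cyclins were not called, CCND1 at -0.10 (SE 0.18) and CCND3 at 0.18 (SE 0.44) on the log2 scale.

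Genes known to rise when cells leave the cycle did not mark the resting cells as a group. Of 12 such genes, none was higher and 2 were lower in cycling cells, PNRC1 and the kinase inhibitor gene CDKN1C. PNRC1 stood at 90.4 and 84.9 CPM against 147 and 177 (log2 fold change -0.86, SE 0.18, adjusted p = 6.0e-05). CDKN1C was lower overall (log2 fold change -0.87, SE 0.22, adjusted p = 0.0018) but its samples disagreed, with 45.5 against 29.8 CPM in blastoid 3 and 69.6 against 211 in blastoid 4. Without blastoid 4 its log2 fold change was 0.61 and was not called. CDKN1A, the inhibitor induced by p53, stood at 33.7 and 28.5 against 23.4 and 31.6 CPM, and none of 10 p53 targets was called.

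**Figure D2:**
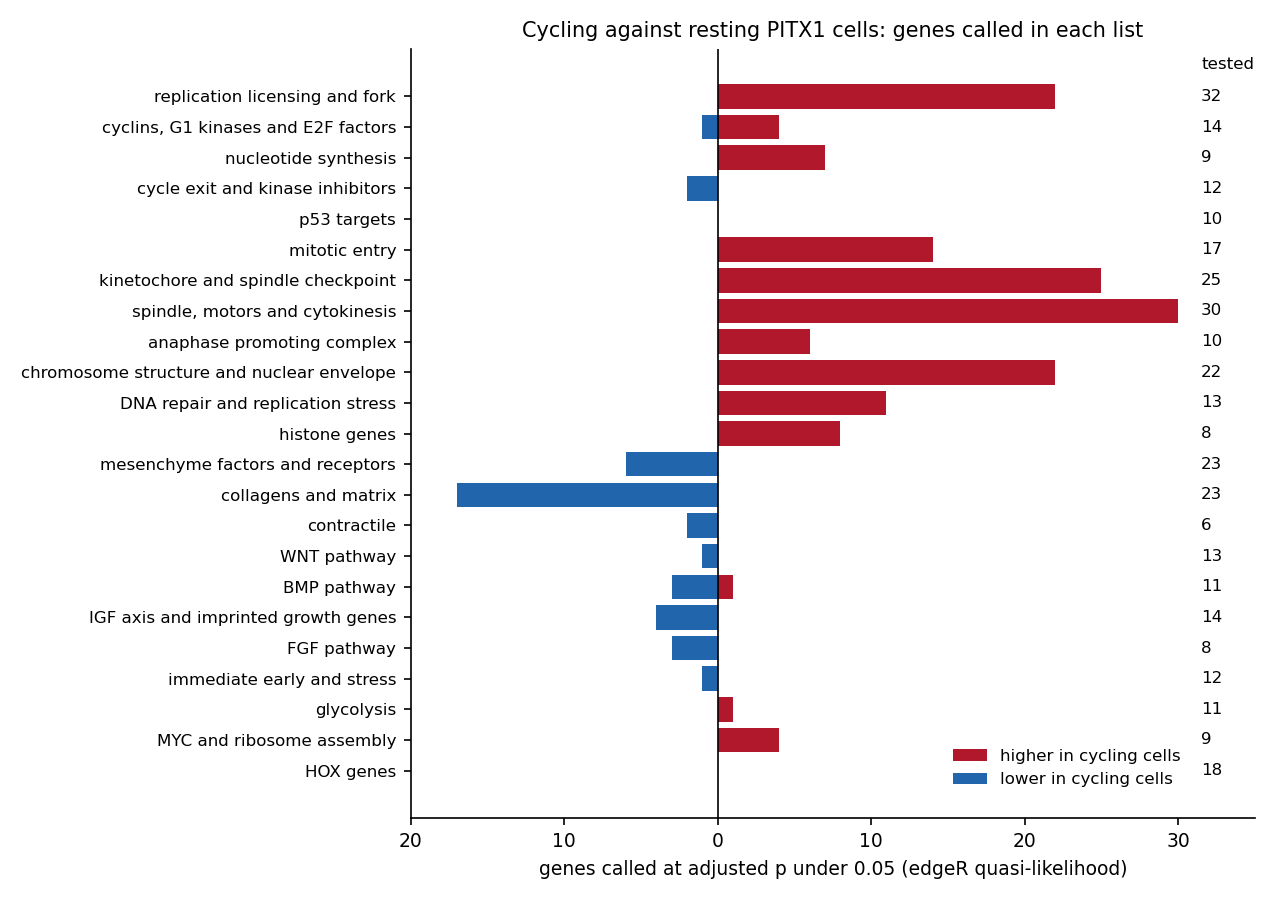
Number of genes called at an adjusted p under 0.05 (x axis) in each gene list (y axis) in cycling against resting PITX1 cells; red bars to the right count genes higher and blue bars to the left genes lower in the cycling cells, and the column of numbers gives the genes tested. Cycle lists reach 25 of 25 and 30 of 30 higher, and the collagen and matrix list has 17 of 23 lower.

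The promoters of 4 mitotic genes are shown because genes of mitosis are known to be switched on together through the elements marked in them. They are those with the largest fitted rise among called genes of the mitotic entry and spindle lists that the promoter table holds under their own symbol, taken from RefSeq (GRCh38.p14, 250 bases before to 50 after the start, written 5′ to 3′ on the gene's strand), with capitals marking motifs on either strand. The CHR motif was searched as TTTGAA and in its variant form TTCGAA. The NF-Y motif was the box named above, CCAAT. The E2F motif was searched as TTTGGCGC and in the further form TTTCGCGC. Where a CCAAT and a CHR match touch or overlap, the capitals run together.
PLK1 (chr16:23678639-23678938, plus strand): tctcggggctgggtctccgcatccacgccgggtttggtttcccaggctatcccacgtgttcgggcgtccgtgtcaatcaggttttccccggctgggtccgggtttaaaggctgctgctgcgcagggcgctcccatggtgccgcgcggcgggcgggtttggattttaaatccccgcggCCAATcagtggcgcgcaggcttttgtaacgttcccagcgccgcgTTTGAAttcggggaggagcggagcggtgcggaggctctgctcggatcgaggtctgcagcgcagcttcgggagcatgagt
CIT (chr12:119877271-119877570, minus strand): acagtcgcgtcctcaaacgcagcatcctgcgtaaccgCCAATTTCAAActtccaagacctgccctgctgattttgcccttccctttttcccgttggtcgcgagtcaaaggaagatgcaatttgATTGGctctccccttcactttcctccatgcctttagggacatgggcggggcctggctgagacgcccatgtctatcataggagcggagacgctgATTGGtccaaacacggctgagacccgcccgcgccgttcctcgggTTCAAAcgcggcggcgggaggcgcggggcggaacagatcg
SPAG5 (chr17:28598976-28599275, minus strand): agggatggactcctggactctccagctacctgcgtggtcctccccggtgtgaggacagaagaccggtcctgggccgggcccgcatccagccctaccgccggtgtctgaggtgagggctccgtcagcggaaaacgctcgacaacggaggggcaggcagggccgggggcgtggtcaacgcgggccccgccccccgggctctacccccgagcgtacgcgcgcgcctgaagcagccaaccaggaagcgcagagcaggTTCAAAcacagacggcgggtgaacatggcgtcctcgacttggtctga
KIF4A (chrX:70289854-70290153, plus strand): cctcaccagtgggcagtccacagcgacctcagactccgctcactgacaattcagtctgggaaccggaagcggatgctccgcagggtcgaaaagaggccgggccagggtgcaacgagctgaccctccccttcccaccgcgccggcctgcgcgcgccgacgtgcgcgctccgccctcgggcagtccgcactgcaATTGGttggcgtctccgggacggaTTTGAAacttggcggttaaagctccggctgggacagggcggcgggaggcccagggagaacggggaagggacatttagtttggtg
PLK1 and KIF4A held 1 CCAAT and 1 CHR match each, CIT held 3 and 2, and SPAG5 held a CHR match alone. Of 75 called genes of the mitotic lists (entry, kinetochore, spindle and anaphase promoting complex) 66 had a promoter in the table, and 65.2% of these held a CHR motif, 72.7% a CCAAT motif and 51.5% both. Of all 27305 promoters the shares were 16.6%, 35.7% and 6.58%, and of the genes tested (7728 of 9299 matched) they were 11.4%, 37.9% and 5.14%. Among 510 genes called higher (429 matched) the shares were 32.2%, 56.4% and 22.1%. The replication genes called higher (19 of 22 matched) held no CHR motif in this window, a CCAAT motif in 63.2% and an E2F motif in 21.1%. The E2F share was 1.18% in all promoters and 2.28% in the genes tested. Of the 369 genes called lower 280 had a promoter (75.9%). Among these the shares were 9.64% for CHR, 37.9% for CCAAT, 3.93% for both and 1.07% for E2F.

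Within the PITX1 cells the list levels changed with the number of cycle genes detected, in a different order for replication and for mitosis. The summed level of the replication list in blastoid 3 was 1035 raw CPM in cells with 0 cycle genes, 3380 in cells with 4 and 2084 in cells with 8. In blastoid 4 it was 652.7, 2436 and 1870 at the same counts, with its highest value, 2540, in cells with 7. Replication genes thus peaked before the highest count in both samples. The kinetochore list rose over the whole range, from 291.6 to 1591 and 3421 raw CPM in blastoid 3 and from 187.6 to 1198 and 3036 in blastoid 4. The collagen and matrix list was higher in cells with 0 or 1 cycle genes (5128 and 6972 in blastoid 3, 6445 and 5722 in blastoid 4) than in cells with 4 to 8, where it ran from 3374 to 3895 and from 2932 to 4119. The depth moved along this axis too, from a median of 3966 UMIs at 0 genes to 9237 at 8 in blastoid 3 and from 6829 to 11788 in blastoid 4. These are descriptions over bins of 16 to 76 cells, and the 1 bin under 20 cells (3 cycle genes in blastoid 4) gives none of the values above.

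**Figure D3:**
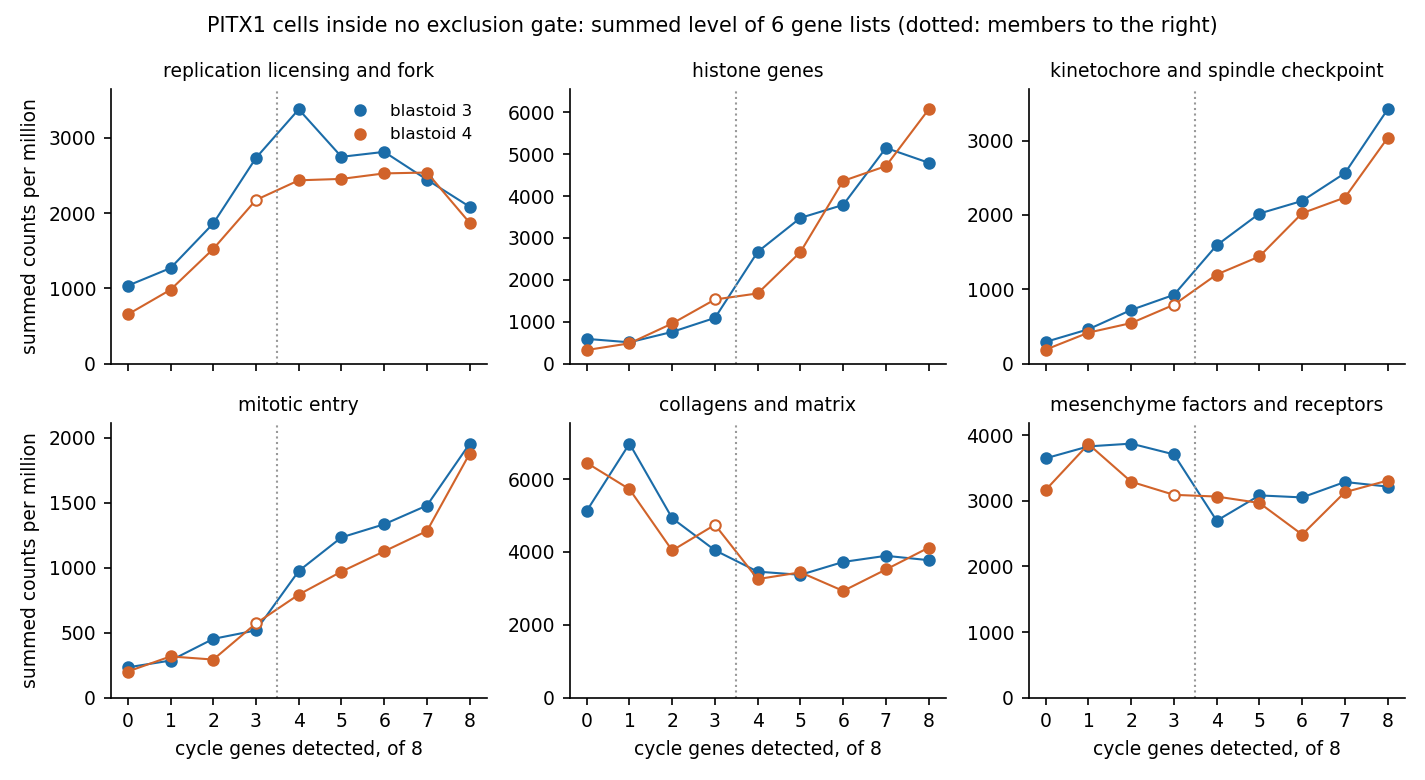
Summed level of 6 gene lists (y axis, raw CPM) in PITX1 cells inside no exclusion gate, by the number of the 8 cycle genes detected (x axis) and blastoid sample (colour); the open circle is a bin of 16 cells and members lie right of the dotted line. The replication list peaks at 4 genes in blastoid 3 (3380) and at 7 in blastoid 4 (2540), while the kinetochore list is highest at 8.

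Extracellular matrix genes were lower in the cycling cells. Of 23 collagen and matrix genes tested 17 were called lower and none higher, at a median log2 fold change of -0.78, beside 3.97% of all genes called lower. COL6A3, a chain of microfibrillar collagen VI, stood at 295 and 317 CPM in the cycling cells of blastoid 3 and 4 and at 699 and 792 in the resting cells. Both resting values lay above both cycling values (log2 fold change -1.28, SE 0.11, adjusted p = 1.4e-30). COL3A1, the fibrillar collagen of soft tissue, stood at 344 and 328 against 873 and 644 (log2 fold change -1.18, SE 0.10, adjusted p = 4.4e-27), and FN1, fibronectin, at 109 and 98.8 against 271 and 278 (log2 fold change -1.39, SE 0.15, adjusted p = 1.1e-17). LUM, a collagen-binding proteoglycan, stood at 184 and 284 against 477 and 419.7 and TIMP3, a matrix-bound inhibitor of metalloproteases, at 14.1 and 15.3 against 57.5 and 85.2, the latter with a log2 fold change of -2.23 (SE 0.33). The groups of these 4 genes did not overlap. The basement membrane genes LAMB1 and LAMC1 were not called, at -0.11 (SE 0.28) and 0.03 (SE 0.16).

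The matrix gate itself removed cells with several genes of this kind from both states, and among those that remained its genes were also lower in the members. POSTN, periostin, was at 62.1 and 22.5 raw CPM in members against 232 and 51.8 in resting cells, and DCN, decorin, at 44.6 and 45.1 against 117 and 73.2, values given without a test. The number of matrix genes called lower was 12 of 23 in cells matched for depth, 13 of 22 without shared barcodes, 14 of 23 without cells with at least 2 pluripotency genes, 8 of 23 by DESeq2 and 8 of 23 without the block, with none higher in any of these. The first 2 of these alternatives were chosen after seeing the data. LUM was not called in cells matched for depth, where its log2 fold change was -0.26. The count was 11 of 24 without blastoid 3 and 12 of 23 without blastoid 4, and 3 of 21 in cells between the 25th and 75th percentile of member depth. The count over all genes rested on the choice of resting cells. With PITX1 cells of every gate as resting cells 3014 genes were called, and 19 matrix genes were lower and 2 higher.

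Several secreted factors and receptors were also lower in the cycling cells. NTRK2, the receptor of the neurotrophin BDNF, stood at 9.84 and 20.9 CPM in cycling and 109 and 110.5 in resting cells (log2 fold change -2.92, SE 0.29, adjusted p = 1.7e-21). IGFBP3, which binds insulin-like growth factors, stood at 93.7 and 185 against 347 and 915 (log2 fold change -2.12, SE 0.13, adjusted p = 2.4e-58). Both resting values exceeded both cycling values for each of these genes. HGF, hepatocyte growth factor, stood at 70.3 and 36.2 against 247 and 129 CPM (log2 fold change -1.82, SE 0.18, adjusted p = 1.1e-20) and ADAMTS1, a secreted protease, at 92.3 and 88.4 against 256 and 275 (log2 fold change -1.54, SE 0.16). CCDC80, a secreted matrix protein, stood at 32.8 and 25.7 against 70.3 and 256 CPM, with most of its difference in blastoid 4, and was not called without that sample (-1.10). The other genes among the 10 largest called falls outside these were the crosslinking enzyme TGM2 (-1.70, SE 0.26), the coagulation inhibitor TFPI (-1.54, SE 0.20), BMP5 (-1.54, SE 0.29) and KCTD12 (-1.53, SE 0.28). Over 16 alternatives the log2 fold change ran from -3.46 to -1.88 for NTRK2 and from -2.81 to -1.43 for IGFBP3, and both were called in all of them, as were COL6A3 (-1.47 to -0.64) and FN1 (-1.55 to -0.92). BMP5 changed sign in cells of middle depth, at 0.39, and was not called there. BMP5 and KCTD12 were not called without blastoid 3, nor TGM2 without blastoid 4.

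Transcription factors of mesenchyme shifted less. Of 23 mesenchyme factors and receptors 6 were called lower and none higher, at a median log2 fold change of -0.44. PRRX1 stood at 451 and 367 CPM in cycling and 697 and 502 in resting cells (log2 fold change -0.55, SE 0.11, adjusted p = 8.4e-06). Both resting values lay above both cycling values. The others included the homeobox gene MEIS1 (-1.03, SE 0.35), the zinc finger genes ZEB2 (-0.81, SE 0.19) and SNAI2 (-0.61, SE 0.17), and HAND2 (-0.46, SE 0.15). DESeq2 and the fit without the block called none of the 6, and without blastoid 3 only 1 gene of the list was called.

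Of the other genes that name this mesenchyme, 5 were not called. HAND1 stood at 739 and 1033 CPM in cycling and 807 and 858 in resting cells, lower in one sample and higher in the other (log2 fold change 0.06, SE 0.09). TBX3 was at 426 and 333 against 409 and 436 (-0.14, SE 0.12), and WNT5A at 437 and 299.9 against 426 and 306 (0.01, SE 0.12). MSX1 and MSX2, homeobox genes induced by BMP, were at 0.22 (SE 0.14) and 0.23 (SE 0.18). None of 18 HOX genes tested was called either. With resting cells of every gate HAND1 was called lower, at -0.18, and WNT5A higher, at 0.38. Without blastoid 4 MSX1 was called higher, at 0.64.

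**Figure D4:**
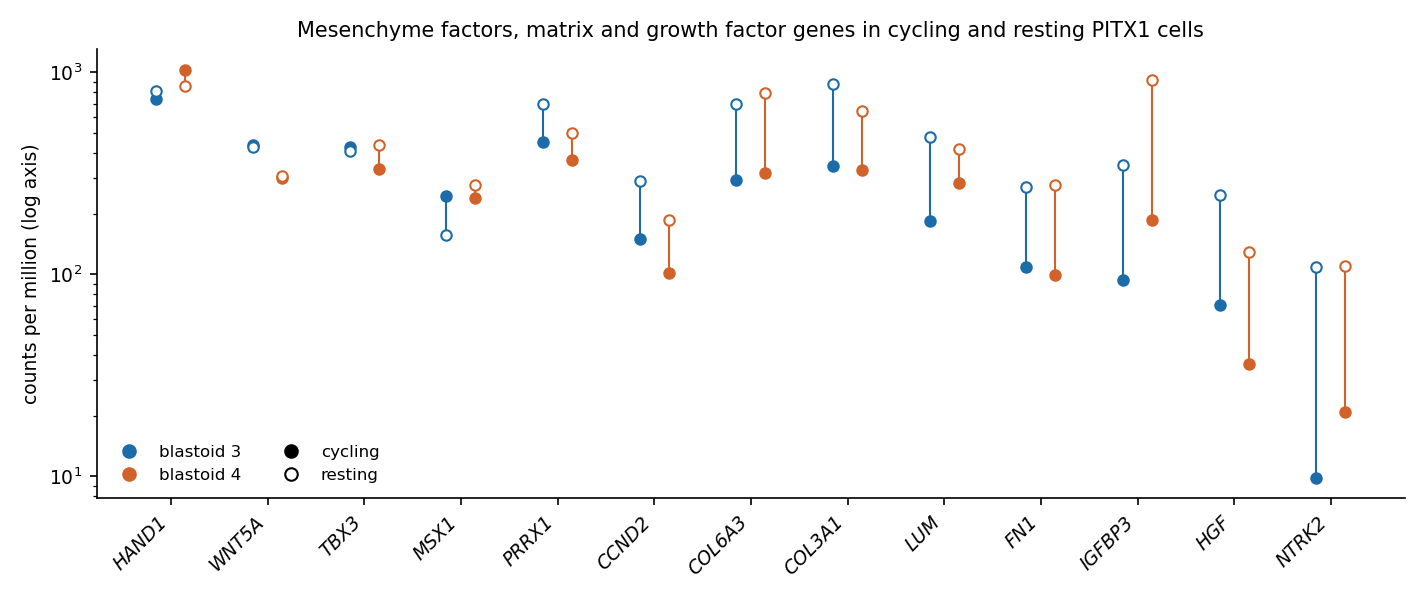
Level of 13 genes (y axis, TMM-scaled CPM, log axis) in cycling (filled) and resting (open) PITX1 cells of blastoid 3 (blue) and blastoid 4 (orange), each point being 1 summed sample and state. HAND1, WNT5A and TBX3 lie close together in both states, and the open points of COL6A3, COL3A1, FN1, IGFBP3 and NTRK2 lie above the filled ones in both samples.

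The signalling lists held a few called genes each, beside 5.48% of all genes called higher and 3.97% called lower. Of 11 BMP pathway genes the target ID2 was called higher, at 509 and 529.6 against 326 and 423 CPM (log2 fold change 0.49, SE 0.11, adjusted p = 0.00041). BMP5, BMP2 (-0.89, SE 0.29) and the decoy receptor gene BAMBI were called lower, the last at 219 and 344 against 362 and 694 CPM (log2 fold change -0.87, SE 0.12, adjusted p = 1.2e-11). BMP2 was near 0 with at least 5 cycle genes against 0 (0.03 on the log2 scale). Of 8 FGF pathway genes 3 were called lower, the receptor FGFR2 at 52.0 and 72.4 against 141 and 101 CPM and the feedback inhibitors SPRY1 (-0.79, SE 0.27) and SPRY2 (-1.28, SE 0.39). Of 13 WNT pathway genes 1 was, the WNT amplifier RSPO3 (-1.12, SE 0.39). Of 14 genes of the insulin-like growth factor axis and imprinted growth genes 4 were called lower, IGFBP3, IGFBP5 (-2.34, SE 0.41), CDKN1C and PEG10, the last at 746 and 344 against 854 and 839 CPM. Of 9 genes of MYC and ribosome assembly 4 were called higher, led by NOP58 (0.69, SE 0.18) and with nucleolin, NCL, at 1171 and 1128 against 986 and 754 CPM. ID2, FGFR2, SPRY2, RSPO3 and NOP58 were not called without blastoid 3, nor SPRY1, SPRY2, RSPO3, IGFBP5, PEG10 and NCL without blastoid 4, and BMP2 was not called without either sample.

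Some markers of other cell types moved with the cycle state and are given beside these results. POU5F1 stood at 32.3 and 77.2 CPM in cycling and 19.2 and 3.16 in resting cells (log2 fold change 1.97, SE 0.41, adjusted p = 6.3e-05), and in cells chosen after thinning to 3000 UMIs it was called lower, at -0.83. It was not called without blastoid 4. MESP1, a gene of nascent mesoderm, stood at 40.3 and 20.9 against 6.39 and 9.47 CPM (log2 fold change 2.06, SE 0.53, adjusted p = 0.002) and did not pass the test by DESeq2, without the block or without blastoid 3. KDR, a receptor of mesoderm and endothelium, was lower at 94.7 and 55.0 against 156 and 211 (log2 fold change -1.22, SE 0.18, adjusted p = 5.7e-10). The summed level of 5 nascent mesoderm markers was 62.1 and 27.3 raw CPM in members and 15.2 and 15.2 in resting cells, and that of 7 endothelial markers 102.9 and 58.0 against 175.7 and 231.7. Their part in the other differences was not tested.

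The second comparison sets the members beside dividing stem cells. These were 1310 cells of hESC 1 and 1702 of hESC 2 with at least 4 of the 8 cycle genes. Both groups thus passed the same cycle gate, and whether they held a like mix of cycle phases was not tested. Levels are TMM-scaled CPM within this comparison, and fold changes are blastoid minus hESC. Of 13642 genes tested by edgeR's quasi-likelihood test 5800 were called (42.5%), 2888 higher (21.2%) and 2912 lower (21.3%) in the members, so the share of called genes in a list has to be read against a high background. Scaling by library size alone put the median of all genes at 0.14 on the log2 scale, against -0.01, and moved the called split from 49.8% to 61.4% higher. The groups consist of different samples, and a batch between the blastoid and the stem cell libraries cannot be told apart from the cell type. The tables of hESC 1 and hESC 2 also share 1317 barcodes, and 4675 genes were called without barcodes found in more than 1 of the tables.

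Among genes of the cycle, the members and the stem cells differed in which genes were abundant. Of 16 cyclins, G1 kinases and E2F factors 8 were called higher in the members and none lower. The higher calls were 4 of 15 without hESC 1 and 2 of 11 in cells matched for depth, and without blastoid 3 they were 6 of 16 with 2 lower. CDK6, the kinase partner of D-type cyclins, stood at 94.8 and 69.8 CPM in the members of blastoid 3 and 4 and at 27.2 and 22.2 in the stem cells (log2 fold change 1.76, SE 0.18, adjusted p = 3.6e-06). CCNE2, a cyclin of S phase entry, stood at 14.8 and 6.65 against 1.99 and 2.30 CPM (log2 fold change 2.39, SE 0.38, adjusted p = 0.00022). CDK4 was at 175 and 171 against 123 and 119.9 (log2 fold change 0.51, SE 0.14), and was not called without either stem cell sample or in cells matched for depth. The members lay above the stem cells without overlap for these 3 genes.

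Replication and repair genes leaned the same way. Of 32 replication genes 15 were called higher and 3 lower (median 0.37 on the log2 scale, beside -0.01 for all genes). Without hESC 1 the counts were 6 and 1, without hESC 2 they were 9 and 1, by DESeq2 8 and 2, and in cells matched for depth 7 and 2 of 29. UHRF1, which couples DNA methylation to replication, stood at 32.8 and 43.2 CPM against 8.81 and 12.0 (log2 fold change 1.83, SE 0.22, adjusted p = 1.9e-05). MCM5, a subunit of the replicative helicase, was among the lower ones, at 31.9 and 33.9 against 48.8 and 54.5 (log2 fold change -0.66, SE 0.17, adjusted p = 0.0062), and was not called without hESC 2. In cells matched for depth UHRF1, MCM5, EXO1 and the spindle gene CKAP2L were not called. Of 13 DNA repair and replication stress genes 8 were higher and none lower (median 0.65), with 4 higher without hESC 1 (median 0.48) and 5 in cells matched for depth. BRCA1, of homologous recombination, was at 73.7 and 71.8 against 30.7 and 29.8 CPM (log2 fold change 1.27, SE 0.15, adjusted p = 1.4e-05) and the nuclease EXO1 at 1.35 (SE 0.20).

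Calls among mitotic genes went in both directions and depended on the setting. Of 25 kinetochore genes 9 were called higher and 5 lower. Scaled by library size alone the counts were 11 and 2, and they were 4 and 3 without hESC 1 and also without hESC 2. Of 17 genes of mitotic entry 4 were higher and 3 lower, shares near the background of 21.2% and 21.3%. SKA1, which couples kinetochores to microtubules, stood at 124 and 89.7 CPM in members and 23.6 and 22.0 in stem cells (log2 fold change 2.24, SE 0.17, adjusted p = 2.3e-07). BUB1, a kinase of the spindle checkpoint, was lower at 73.7 and 71.8 against 116 and 122 CPM (log2 fold change -0.71, SE 0.15, adjusted p = 0.0015). CKS2, a cofactor of cyclin-dependent kinases, stood at 189 and 205 against 448 and 405 (log2 fold change -1.12, SE 0.15, adjusted p = 4.2e-05), and UBE2S, a ubiquitin-conjugating enzyme of the anaphase promoting complex, at 275 and 349 against 643 and 557 (log2 fold change -0.95, SE 0.16). The spindle list was higher for 14 of 30 and lower for 2. Scaled by library size alone these counts were 20 and 0, without hESC 1 they were 5 and 0, without hESC 2 and by DESeq2 7 and 0, and in cells matched for depth 7 and 1. Among the spindle genes, CKAP2L stood at 50.3 and 60.5 against 16.7 and 17.0 and TUBB4B, a beta-tubulin gene, at 363 and 413 against 138 and 174 CPM.

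Targets of p53 were lower in the members. Of 12 tested 9 were called lower and none higher (median -1.03 on the log2 scale). GDF15, a stress-induced cytokine, stood at 4.94 and 7.31 CPM in the members and 27.9 and 31.4 in the stem cells (log2 fold change -2.32, SE 0.27, adjusted p = 1.3e-05). BAX, of the mitochondrial path to cell death, was at 124 and 169 against 358 and 306 (log2 fold change -1.19, SE 0.17, adjusted p = 9.1e-05), and PHLDA3 at 19.8 and 25.9 against 62.1 and 57.4. Genes of cycle exit were higher for 7 of 13 and lower for none (3 of 11 higher in cells matched for depth), such as BTG1 at 118 and 122 against 59.3 and 53.9 CPM and CDKN1C at 43.6 and 66.5 against 30.1 and 24.7. MYC was lower at 3.14 and 6.65 against 28.8 and 22.8 (log2 fold change -2.48, SE 0.33, adjusted p = 4.4e-05) and its relative MYCN higher at 146 and 93.03 against 40.6 and 42.6 (log2 fold change 1.55, SE 0.18, adjusted p = 1.8e-05).

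**Figure D5:**
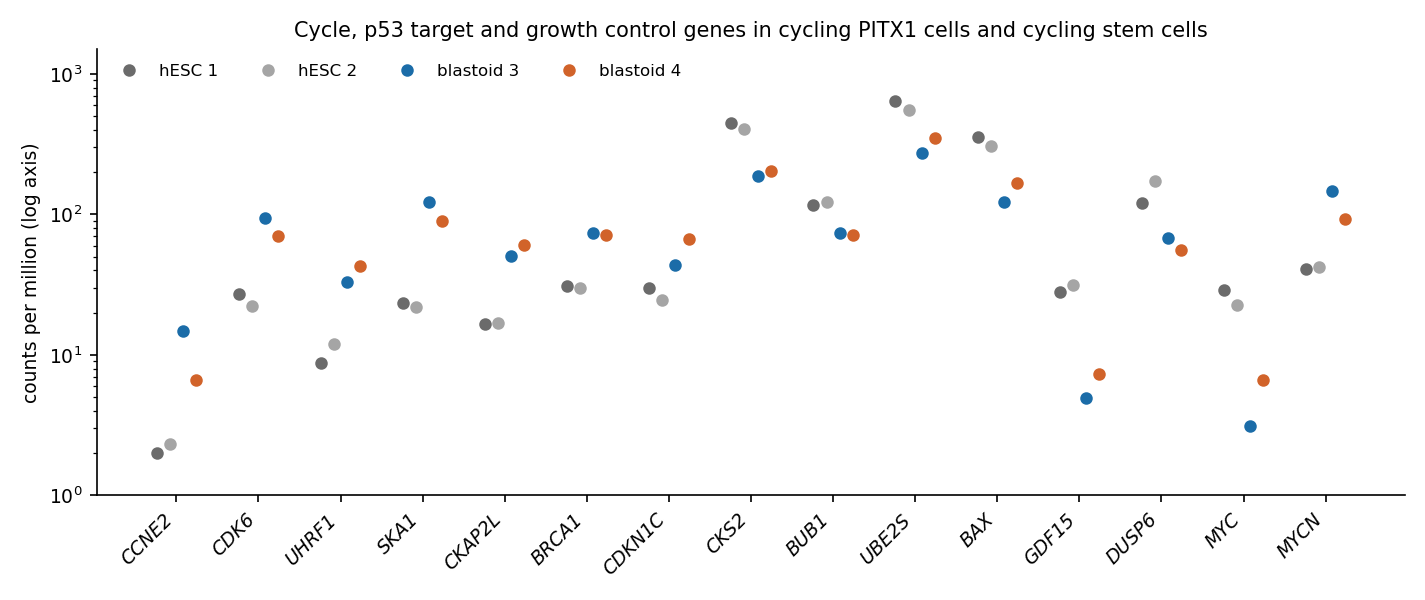
Level of 15 genes (y axis, TMM-scaled CPM, log axis) in cycling stem cells (greys) and cycling PITX1 cells of the blastoids (colours), each point being 1 summed sample. The points of the blastoids lie above those of the stem cells for CCNE2, CDK6, UHRF1 and SKA1 and below them for CKS2, BUB1, BAX and GDF15.

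Lineage and signalling genes were among those with the largest differences. Among the largest called rises outside the rule, MSX2 stood at 125 and 129 CPM against 0.42 and 0.26, MSX1 at 235 and 229 against 0.94 and 0.85, the imprinted transcript H19 at 649.6 and 435 against 2.10 and 1.37 and the WNT effector LEF1 at 155 and 126 against 1.05 and 0.85. WNT5A stood at 419 and 286 against 1.89 and 1.37 CPM (log2 fold change 7.77, SE 0.26, adjusted p = 1.2e-10). The others of the 10 largest rises were COL6A3 and 4 genes of no list, PMP22, AHNAK, TMEM88 and OAF, at log2 fold changes of 8.24, 6.93, 6.42 and 6.25. The gate that chose the members used PITX1, and genes of the same cells are not independent of it. Matrix genes were higher for 19 of 22 and lower for 1, SERPINE2, although they were lower in cycling than in resting PITX1 cells: COL6A3 stood at 283 and 302 CPM in the members and 1.99 and 1.45 in the cycling stem cells. Of 10 BMP pathway genes 8 were higher and none lower (median 2.41), with ID2 at 488 and 506 against 51.9 and 42.2 and BMP4 at 151 and 159 against 5.24 and 6.06 CPM. Of 9 FGF pathway genes 8 were lower and 1 higher (median -1.24), with the ERK phosphatase gene DUSP6 at 67.8 and 55.8 against 121 and 174 and the ETS factor gene ETV4 at 13.5 and 5.32 against 52.3 and 61.7. The secreted WNT inhibitors SFRP1 and SFRP2 fell, at log2 fold changes of -3.29 and -3.89. At the other end, the neural and stem cell factor ZIC2 stood at 2.70 and 4.65 against 210.3 and 222 CPM, and PLA2G4C, a phospholipase gene, had no UMI in the members and 563 and 618 UMIs in the stem cells. Of the other large falls, the noncoding genes FOXD3-AS1 and LNCPRESS1 had log2 fold changes of -6.93 and -5.79, the metallothionein gene MT1H of -6.81 and the receptor gene LRIG1 of -6.13.

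The third comparison asks whether the step from resting to cycling differed between PITX1 cells and stem cells. It is the interaction term of edgeR's quasi-likelihood test over 8 sums with the sample as a block. With 2 residual degrees of freedom, this test also leaned on a spread shared by all genes, little above counting error. Of 10859 genes tested 648 were called (5.97%), 473 with a positive interaction, a higher cycling minus resting value in PITX1 cells (4.36%), and 175 with a negative one (1.61%). Of the 648, 295 moved in opposite directions in both samples of each group. The same count was not made over all genes tested, and a call by the interaction favours such genes. Kinetochore genes were called with a positive interaction for 22 of 25 and spindle genes for 25 of 30, and collagen and matrix genes with a negative one for 7 of 21. The matrix count was 2 of 22 without hESC 1, 3 of 22 without hESC 2, 4 of 21 without blastoid 4 and 3 of 21 without shared barcodes. It was 1 of 21 by DESeq2, without the block and in cells matched for depth, and 0 of 19 in cells of middle depth. The kinetochore and spindle counts were 13 of 25 and 13 of 30 by DESeq2 and 2 of 25 and 2 of 28 in cells of middle depth. Scaling by library size alone moved the split from 73.0% to 61.0% positive. ATP2B1, a calcium pump of the plasma membrane, stood at 212 and 289 CPM in cycling and 332 and 485 in resting PITX1 cells and at 71.7 and 66.2 and 40.5 and 46.6 in cycling and resting stem cells (difference of log2 fold changes -1.34, SE 0.20, adjusted p = 4.4e-09). The resting stem cells were shallow, with medians of 1345.5 and 1088 UMIs against 7366.5 and 6751 in cycling stem cells, a wider gap than in the PITX1 cells. Called genes numbered 149 by DESeq2, 145 without the block, 28 in cells of middle depth, 171 in cells matched for depth and 317 without shared barcodes.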

How the data were processed

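The authors deposited raw UMI counts per gene and cell barcode, 1 table per sample, with no normalization. Cell Ranger and the build GRCh38 are named in the submitters' processing notes, and the aligner settings and annotation are not given in the sources used here. In the deposited tables every barcode has between 201 and 4994 genes and under 20% mitochondrial UMIs. Titles and table names of the blastoids give different days, and the groups were taken from the descriptions. The 4 tables held 19074 barcodes, 9680 of them with at least 500 genes, and per-sample totals of 14930662 to 18193164 UMIs.

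The members and all gene lists were chosen with earlier results of these data known. UMIs were summed per sample and state, filtered with filterByExpr, scaled by TMM and tested with edgeR 4.0.16 in R 4.3.3 (quasi-likelihood test, Benjamini-Hochberg adjustment over all genes tested, called under 0.05). The sample was a block where both states came from the same samples, which pairs them by the library itself. SEs are the size of the log2 fold change divided by the square root of F. DESeq2 1.42.0 was an alternative, as were scaling, filtering, gates, depth and each sample left out. Scrublet was run through scanpy 1.11.5. The genes named were those of the lists, with up to 4 called genes of the largest change per list meant to come first, and the 10 largest rises and falls among called genes outside the rule whose mean log2 CPM reached 5 and that had the same direction in both samples or did not overlap between groups. List genes beyond these were picked after their values were seen. Tested on simulated counts of 8999 genes for the comparison of cycling with resting cells, the procedure recovered 50 of 50 genes at a log2 change of 2 and of -2, 44 of 50 at 1 and 32 of 50 at -1, with 5 false calls. These counts were drawn with the spread fitted by edgeR and the same mean in both samples, and only better expressed genes were changed. They hold no depth, gate or barcode effect, so the 5 false calls do not show how many the real comparison holds. Promoters came from RefSeq tables of GRCh38.p14, matched by symbol or synonym.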

Additional observations from a re-analysis of the deposited data

Results flagged for a closer look

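The 10 genes given here had the largest falls in the third comparison by the naming rule, so their shared direction comes from the choice. In each the change from resting to cycling was more negative in PITX1 cells than in stem cells. Over all genes tested, 473 were called with a positive and 175 with a negative interaction. The test was the interaction term of edgeR's quasi-likelihood test, whose p-values leaned on a spread shared by all genes. SIPA1L2, a GTPase-activating protein gene, had a difference of log2 fold changes of -1.82 (SE 0.47, adjusted p = 0.0036), with 129 and 111 CPM in cycling and 225 and 194 in resting PITX1 cells. Its stem cell levels were low, 8.98 and 9.59 in cycling and 5.23 and 4.05 in resting cells. TNIK, a kinase of the WNT pathway, had -1.78 (SE 0.28, adjusted p = 3.8e-08), with 41.3 and 41.2 against 84.5 and 99.9 CPM in PITX1 cells and 69.8 and 67.6 against 47.1 and 41.5 in stem cells. The levels of TNIK fell with cycling in both blastoid samples and were higher with cycling in both stem cell samples.

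The difference was -1.75 for PCNX2, -1.44 for LIMA1, an actin-binding protein gene, -1.4 for BAMBI and -1.34 for ATP2B1. It was -1.3 for ANK3, which codes for ankyrin-G, -1.29 for CACNG8, -1.28 for ARHGEF12 and -1.24 for PPFIBP1. Of these 10 genes CACNG8 alone did not move in opposite directions in all 4 samples. Over 16 alternatives each, 96 values stayed past the threshold, 64 kept the direction but missed it and 0 changed sign. In cells of middle depth none of the 10 passed, and TNIK missed it in 1 alternative. The resting stem cells were the shallowest of the 4 groups, and the part of their depth in these differences was not tested beyond these alternatives.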

How the results depend on the processing

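For cycling against resting PITX1 cells the count of 879 called genes (58.0% higher) was 145 by DESeq2 (116 of them higher), 303 with no replicate block (240 higher), 375 with at least 5 of the 8 cycle genes against 0, 81 in cells of middle depth, 399 in cells of matched depth and 3014 with resting cells of every gate. Without any filter on low counts it was 747, 581 of them higher. Leaving out a sample gave 517 without blastoid 3 and 522 without blastoid 4, in a fit where the lone sample is assumed to vary like the stem cells. All 145 and 303 genes called by DESeq2 and without the block were among the 879. For members against cycling stem cells the count of 5800 was 3680 by DESeq2 and 2099 at matched depth, and it ran from 3453 (without hESC 1) to 6225 (without blastoid 4) with a sample left out, at 3695 without hESC 2. No block could be had there, as the groups share no sample. For the interaction the count of 648 was 149 by DESeq2, 145 with no replicate block, 150 with at least 5 cycle genes against 0, 28 at middle depth, 171 at matched depth and 317 without shared barcodes, and from 359 (without hESC 1) to 480 (without blastoid 3) with a sample left out, with 391 without hESC 2 and 407 without blastoid 4. The share of PITX1 cells past the cycle gate, 61.0% as the mean of both samples, was 34.6% thinned to 2000 UMIs, 68.5% with at least 3 and 52.6% with at least 5 cycle genes.

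For named genes of the first comparison 1182 alternative values kept direction and call, 245 kept direction but missed the threshold, 2 passed it newly and 5 changed sign. CDKN1C was at 0.61 without blastoid 4 and at -1.58 without blastoid 3. BMP2 was at 0.0287 with at least 5 cycle genes against 0, POU5F1 at -0.83 by the rule on thinned cells, BMP5 at 0.39 at middle depth and HAND1 at -0.18 with resting cells of every gate. For the second comparison 1014 values kept direction and call and 17 missed the threshold. The cause of these shifts was not tested, beyond the fewer cells and genes that the depth alternatives hold by construction.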

Other observations

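HOX genes, which mark position along the body axis, were present in the members up to the last paralog groups. HOXB9 stood at 147 and 122 CPM in the cycling and 158 and 101 in the resting cells of blastoid 3 and 4, HOXA10 at 116 and 114 against 113 and 107 and HOXA9 at 84.8 and 79.3 against 93.7 and 97.8. HOXA13, the last gene of its cluster, stood at 32.3 and 28.5 against 12.8 and 63.1. None of 18 HOX genes tested was called between the 2 states by edgeR's quasi-likelihood test, at a median log2 fold change of 0.06.

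The members can be set beside the cycling PITX1 cells that the exclusion gates removed, as levels in raw CPM and with no test, since the gates chose the cells. PITX1 was at 671 and 949.9 in members, 761 and 925 in cycling cells of the TECRL gate and 764 and 933 in cycling cells of the matrix gate, and HAND1 at 765 and 1013, 866 and 1056 and 716 and 915. WNT5A was at 452 and 294 in members, 341 and 259 in the TECRL gate and 113 and 148 in the matrix gate. COL3A1 ran the other way, at 356 and 322, 1159.8 and 709.7 and 3681 and 2569.8, as did LUM at 191 and 279, 669 and 672 and 1544 and 1665. RGS5, a gene of the TECRL gate, was at 128 and 135 in members and at 469 and 509.5 in the matrix gate, so the gates overlap.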
